A study of Mus musculus with 12 samples.

Results

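Phgdh, Psat1, Psph, Shmt1, Mthfd1, Shmt2, Mthfd2, Mthfd1l and Aldh1l2 encode enzymes that make serine from a glycolytic intermediate and pass its carbon into folate in the cytosol and in mitochondria. These 9 genes were taken by name, and all 9 were found among the 21671 gene symbols of the expression table. Their RNA was followed in FL5.12 cells, a prolymphocytic line from BALB/c mice, that expressed MycER, a MYC protein switched on by 4-hydroxytamoxifen (OHT). Every condition, the untreated one included, carried MycER and had 3 libraries of total RNA depleted of ribosomal RNA. Untreated cells received neither agent. OHT cells had 100 nM OHT for 72 h in all, of which 48 h was priming. IACS cells were not primed and spent the last 24 h in 135 nM IACS-010759, an inhibitor of complex I of the respiratory chain. OHT_IACS cells were primed, kept in OHT and given IACS-010759 for the same 24 h. The design therefore asks how each agent moved these RNAs, and whether the response to IACS-010759 differed with MycER activation.

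As background, Phgdh catalyses the first step from 3-phosphoglycerate towards serine, Psat1 the transamination and Psph the final removal of phosphate. Serine hydroxymethyltransferases, Shmt1 in the cytosol and Shmt2 in mitochondria, turn serine into glycine and load its carbon onto tetrahydrofolate. In mitochondria Mthfd2 and Mthfd1l oxidise that carbon and release it as formate, Aldh1l2 can oxidise it to carbon dioxide, and in the cytosol Mthfd1 uses formate for nucleotide and methyl group synthesis. Proliferating cells draw on the mitochondrial branch, and both MYC and the stress factor ATF4 are known to act on many of these genes.

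The values were RPKM, reads scaled to gene length and library total, rescaled between libraries by the median ratio per gene. The steps between low values gave back whole reads for all 15451 genes above 0, with library totals of 10376530 to 14550158 reads. A check of this step on simulated reads recovered 2942 of its 2947 genes. A gene above 0 in a single library gives whole reads in any case. Between 4199266 and 5762340 reads per library lay on genes. A gene was tested if its RPKM reached 1 in at least 3 libraries, which 9745 genes did, among them 8 of the 9 enzymes. Aldh1l2 was the exception.

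Most of the enzymes were abundant RNAs. By mean level Shmt2 exceeded 99.2% of the genes tested, Phgdh 98.6%, Psat1 98.2%, Mthfd2 96.5% and Mthfd1 91.9%. Shmt1 and Mthfd1l exceeded 87.9% and 86.5%, and Psph only 21.7%. This order has a bearing on the values below, because reads of abundant genes grew less than the library did. Within conditions the slope of log2 reads on log2 library total had a median of 1.39 over the 4354 tested genes with under 0.1 reads per base of gene length, and of 0.184 over the 84 genes with 1 or more. Phgdh, at 0.877 reads per base, had a slope of 0.194. The slope was 0.349 for Psat1 (0.827 reads per base), 0.372 for Shmt2 (1.01) and 0.611 for Mthfd2 (0.690). Mthfd1l, Shmt1 and Mthfd1, at 0.374, 0.402 and 0.491 reads per base, had slopes of 0.851, 0.853 and 0.899. Psph, at 0.0446 reads per base, had a slope of 1.93. For the most abundant enzymes a smaller library therefore came with a higher RPKM. The smallest totals were 10376530 in OHT replicate 1, 10770476 in OHT replicate 3 and 11133789 in IACS replicate 3, and the untreated libraries held 13375674 to 14550158. The OHT_IACS libraries held 11792608 to 11913079, all under the untreated ones. The condition and the library total thus overlap in part, and values from a fit with log2 library total as a covariate are given for that reason.

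**Figure D1:**
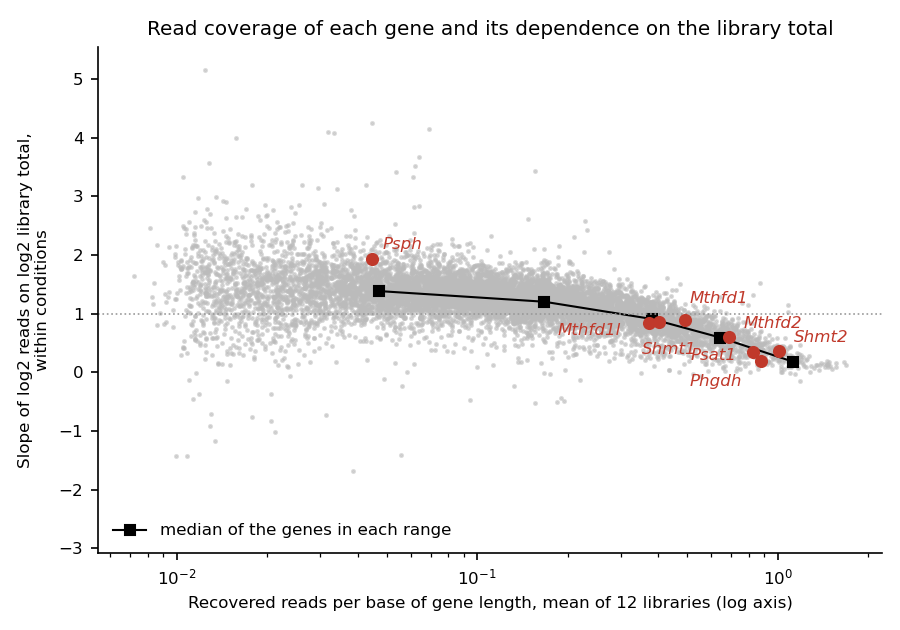
Each grey point is a tested gene with reads in all 12 libraries, by its mean recovered reads per base (log axis) and the slope of log2 reads on log2 library total within conditions; black squares are medians of 5 ranges of coverage and red points are enzymes. The medians fall from 1.39 to 0.184, and Phgdh, Psat1 and Shmt2 lie at the low end of the slopes, with Psph above 1.

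The first enzyme of serine synthesis, Phgdh (chr3:98313170-98339990, minus strand, GRCm38), stood at 65.3, 61.3 and 62.3 RPKM in untreated libraries, 77.7, 57.7 and 74.0 in OHT, 70.6, 67.1 and 80.9 in IACS and 76.4, 75.7 and 74.8 in OHT_IACS. The 3 IACS and 3 OHT_IACS libraries all lay above the untreated ones, while OHT replicate 2, the OHT library with the largest total, lay below them. Mean levels ran untreated (63.0 ± 2.06, SD, n = 3), OHT (69.8 ± 10.7), IACS (72.8 ± 7.18) and OHT_IACS (75.6 ± 0.825), and each neighbouring pair in that order overlapped. In the limma fit over all libraries Phgdh passed the adjusted p of 0.05 only against untreated cells with both agents together (1.20-fold, log2 fold change 0.26, adjusted p 0.0493). That call was kept without OHT replicate 1, OHT replicate 2 or IACS replicate 3, lost without any other library (adjusted p up to 0.128), and lost with log2 library total as a covariate (log2 fold change 0.03, adjusted p 0.381). With OHT alone the log2 fold change was 0.14 (adjusted p 0.297), and it turned to -0.03 with quantile normalization and to -0.12 with the covariate, where it was called lower (adjusted p 0.00604). Without OHT replicate 2 it was 0.27 and called higher (adjusted p 0.00806), and the change with IACS-010759 alone, 0.21 in the fit over all libraries (adjusted p 0.183), was also called (adjusted p 0.0359); with the covariate that change was 0.06 (adjusted p 0.110).

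Psat1 (chr19:15904678-15947337, minus strand), the aminotransferase that follows, measured 58.5, 56.5 and 57.5 RPKM in untreated libraries, 75.9, 59.3 and 73.3 in OHT, 64.5, 62.8 and 73.7 in IACS and 72.0, 70.7 and 72.0 in OHT_IACS. Every treated library was above every untreated one, and the 3 treated conditions overlapped each other. Psat1 rose with OHT (1.20-fold, log2 fold change 0.27, 95% confidence interval 0.08 to 0.45, adjusted p 0.0296) and with both agents (1.24-fold, log2 fold change 0.32, adjusted p 0.0113). The call with OHT was lost with the library total as a covariate, where the log2 fold change was 0.05 (adjusted p 0.255), and without any untreated library or OHT replicate 1 or 3 (adjusted p up to 0.113). The call with both agents held in all 12 fits that left out a library and with the covariate (log2 fold change 0.12, adjusted p 0.00548). With IACS-010759 alone the log2 fold change of 0.22 had an adjusted p of 0.110, and it passed without OHT replicate 2 (adjusted p 0.0177) and in 5 of 12 other settings, among them the covariate, where it was 0.09 (adjusted p 0.0235).

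Psph (chr5:129765558-129787449, minus strand), the phosphatase that completes serine, was far less abundant than Phgdh and Psat1. It stood at 4.30, 3.98 and 3.92 RPKM in untreated libraries, 4.44, 4.65 and 4.31 in OHT, 2.47, 3.01 and 1.79 in IACS and 2.95, 3.50 and 2.94 in OHT_IACS, from 30 to 102 reads per library. All 6 libraries given IACS-010759 were below all 6 without it, and the IACS and OHT_IACS values overlapped. Psph fell by 0.75 on the log2 scale in nonprimed cells (0.594-fold, 95% confidence interval -1.06 to -0.45, adjusted p 0.00308) and by 0.50 in primed cells (0.705-fold, -0.81 to -0.20, adjusted p 0.0205). The fall in nonprimed cells passed the threshold in all 12 fits without a library, with adjusted p up to 0.0164. In primed cells it did not pass without OHT_IACS replicate 1 or 3, where adjusted p reached 0.0716. Without the 3 smallest libraries the log2 fold changes were -0.56 and -0.57 (adjusted p 0.00807 and 0.0244). With the library total as a covariate they were -0.63 and -0.53 (adjusted p 0.0119 and 0.0106). With OHT alone the log2 fold change was 0.13 (adjusted p 0.482), and 0.34 with the covariate (adjusted p 0.155). In OHT_IACS against IACS Psph was higher by 0.38 (adjusted p 0.0610), which passed with the covariate (0.45, adjusted p 0.0232), with quantile normalization, with the replicate number as a block and without IACS replicate 2. With both agents against untreated it had -0.37 (adjusted p 0.0512), called in 6 of the 11 other settings that kept the gene and without IACS replicate 2, IACS replicate 3 or OHT_IACS replicate 2, and -0.18 with the covariate (adjusted p 0.393). Psph shares 452 annotated exon bases with the opposite-strand gene Cct6a, a chaperonin subunit chosen here after values were seen. That annotation gives Psph 4329 exon bases, while the length recovered from the values was 1537, so the shared bases may not all have been counted. The kit kept strand, but whether the counting used it is not stated, so reads of this pair may not be fully separated. Cct6a was at 67.5 to 87.0 RPKM, and its log2 fold change with IACS-010759 was 0.06 in nonprimed cells (adjusted p 0.676) and -0.11 in primed cells (adjusted p 0.382).

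**Figure D2:**
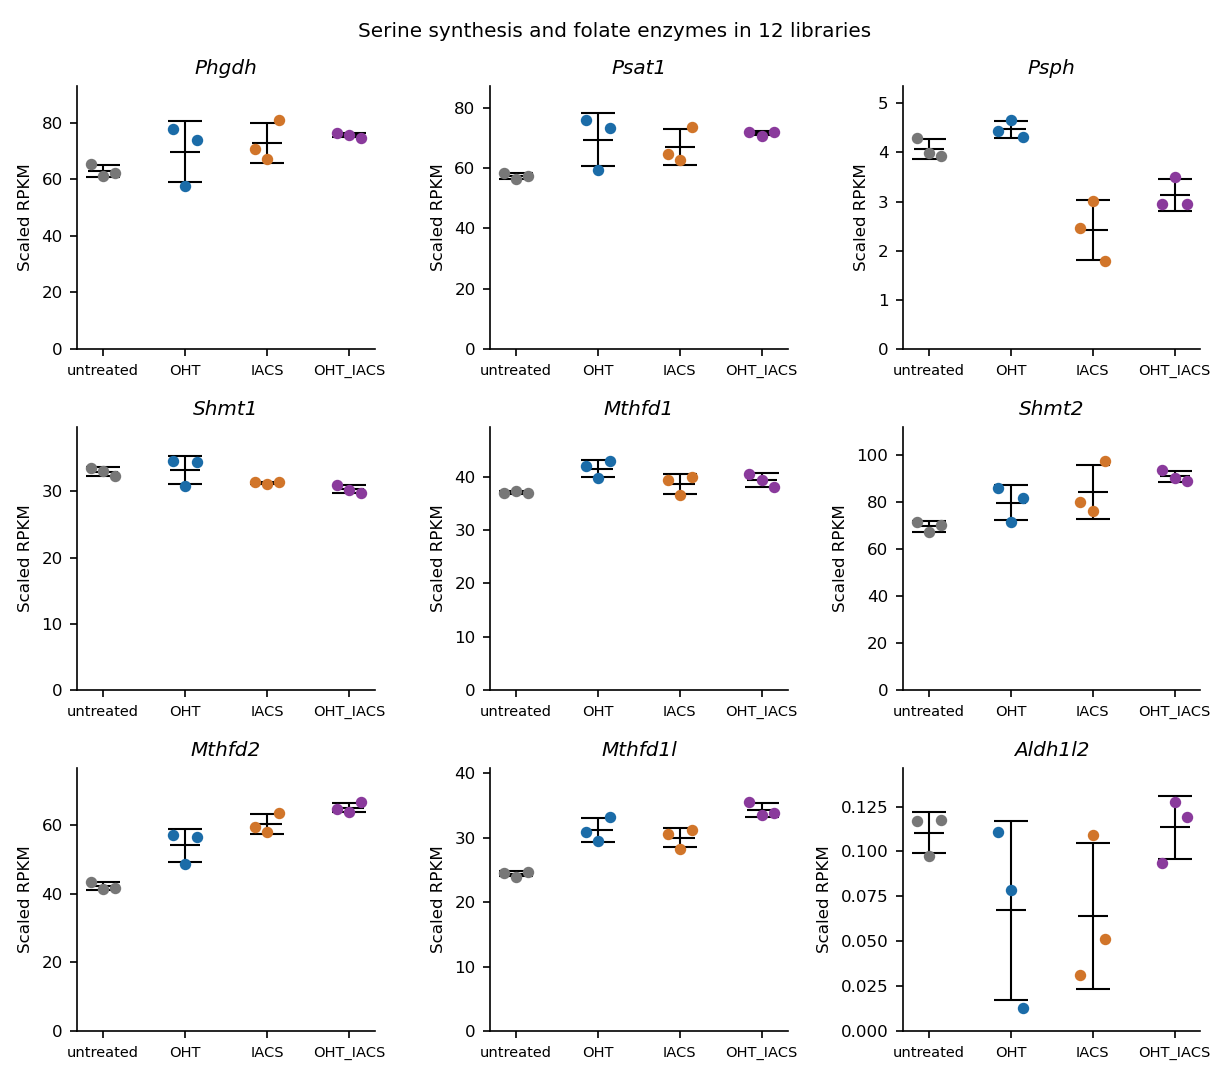
Scaled RPKM of each of the 9 enzymes in the 12 libraries, by condition; coloured points are libraries, and black bars are means with SD (n = 3), with each vertical axis starting at 0. Psat1, Mthfd2 and Mthfd1l are above all untreated libraries in every treated one, Psph is low in the 6 libraries given IACS-010759, and Aldh1l2 stays under 0.13 RPKM.

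Of the serine hydroxymethyltransferases, Shmt1 (chr11:60788104-60811718, minus strand), the cytosolic enzyme, ranged from 29.8 to 34.5 RPKM, with means of 33.0 ± 0.633 in untreated, 33.3 ± 2.13 in OHT, 31.3 ± 0.170 in IACS and 30.3 ± 0.622 in OHT_IACS (SD, n = 3). All IACS and OHT_IACS libraries lay below all untreated ones, and OHT_IACS lay below IACS, while OHT overlapped untreated. Shmt1 passed the threshold in none of the 6 comparisons by this fit. Its lowest adjusted p were 0.0679, for both agents against untreated (log2 fold change -0.12), and 0.0711, for IACS-010759 in primed cells (-0.13). With the library total as a covariate Shmt1 was called lower with IACS-010759 in nonprimed cells (log2 fold change -0.12, adjusted p 0.0447), in primed cells (-0.12, adjusted p 0.0184) and with both agents (-0.19, adjusted p 0.00461). The fall with both agents was called in 5 of 12 other settings, and that fall and the one in primed cells were called without OHT replicate 2. Shmt2 (chr10:127517123-127522444, minus strand), its mitochondrial counterpart, stood at 71.5, 67.0 and 70.3 RPKM in untreated libraries, 86.1, 71.4 and 81.5 in OHT, 79.7, 75.9 and 97.2 in IACS and 93.5, 89.9 and 88.9 in OHT_IACS. The IACS and OHT_IACS libraries were all above the untreated ones, and OHT replicate 2 lay just under the highest untreated library. Shmt2 rose with both agents together (1.30-fold, log2 fold change 0.38, 95% confidence interval 0.18 to 0.58, adjusted p 0.00525), which held in all 12 fits without a library and, at a log2 fold change of 0.19, with the covariate (adjusted p 0.00809). With IACS-010759 alone the log2 fold change of 0.27 had an adjusted p of 0.0669. It passed in 6 of 12 other settings, among them the covariate (0.15, adjusted p 0.0329). It also passed without OHT replicate 1, OHT replicate 2 or IACS replicate 2. With OHT alone the value was 0.19 (adjusted p 0.123), it was -0.02 with the covariate, and it was 0.27 and called higher without OHT replicate 2 (adjusted p 0.0250).

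Mthfd1 (chr12:76255298-76319803, plus strand), the cytosolic trifunctional folate enzyme, was at 36.9, 37.4 and 36.9 RPKM in untreated libraries, 42.0, 39.7 and 42.9 in OHT, 39.4, 36.6 and 39.9 in IACS and 40.6, 39.5 and 38.1 in OHT_IACS. The OHT and OHT_IACS libraries lay above the untreated ones, and IACS replicate 2 did not. Mthfd1 rose with OHT (1.12-fold, log2 fold change 0.16, adjusted p 0.0226), and this call was lost with the covariate (0.10, adjusted p 0.134), with quantile normalization (0.08, adjusted p 0.141) and without any untreated library or OHT replicate 3 (adjusted p up to 0.0918). Its change with IACS-010759 was 0.06 in nonprimed and -0.08 in primed cells (adjusted p 0.471 and 0.298).

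Like Psat1, the mitochondrial pair that carries the folate-bound carbon to formate was higher in every treated library than in any untreated one. The share of all tested genes with such a separation is not given here. Mthfd2 (chr6:83305691-83325908, minus strand), the dehydrogenase and cyclohydrolase, measured 43.5, 41.3 and 41.8 RPKM in untreated libraries, 57.1, 48.6 and 56.7 in OHT, 59.5, 58.0 and 63.5 in IACS and 64.8, 63.9 and 66.6 in OHT_IACS. The 4 conditions did not overlap, in the order untreated, OHT, IACS and OHT_IACS. By limma the last step, OHT_IACS against IACS, was not called (log2 fold change 0.11, 95% confidence interval -0.03 to 0.25, adjusted p 0.246). IACS was not tested against OHT. Mthfd2 rose with OHT (1.28-fold, log2 fold change 0.36, 95% confidence interval 0.21 to 0.50, adjusted p 0.00107), with IACS-010759 in nonprimed cells (1.43-fold, 0.51, 0.37 to 0.66, adjusted p 0.000232) and with both agents (1.54-fold, 0.63, 0.48 to 0.77, adjusted p 1.07e-05). In primed cells IACS-010759 raised it 1.21-fold (0.27, 0.13 to 0.41, adjusted p 0.0111). All 4 calls held in every fit without a library and with the covariate, where OHT gave 0.21. The primed call had an adjusted p of 0.0540 in the fit on the compared groups alone, and with the covariate its log2 fold change was 0.29.

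Mthfd1l (chr10:3973118-4167081, plus strand), the mitochondrial formyl-tetrahydrofolate synthetase that releases formate, stood at 24.6, 24.0 and 24.7 RPKM in untreated libraries, 30.9, 29.5 and 33.2 in OHT, 30.6, 28.3 and 31.1 in IACS and 35.5, 33.5 and 33.8 in OHT_IACS. OHT and IACS libraries overlapped each other, and both lay between the untreated and OHT_IACS libraries. Mthfd1l rose with OHT (1.27-fold, log2 fold change 0.35, 95% confidence interval 0.24 to 0.47, adjusted p 0.000228), with IACS-010759 (1.23-fold, 0.30, 0.18 to 0.41, adjusted p 0.00248) and with both (0.49, 0.37 to 0.60, adjusted p 1.39e-05). By this fit it was the 1 enzyme of 8 called in OHT_IACS against IACS (log2 fold change 0.19, adjusted p 0.0172), although this call was lost without IACS replicate 2 or OHT_IACS replicate 1 (adjusted p up to 0.0863). Its log2 fold change with IACS-010759 in primed cells was 0.14 (adjusted p 0.0766), and it passed without OHT replicate 3 (adjusted p 0.0432) and in 4 of 12 other settings, among them the covariate (0.15, adjusted p 0.0201). With the covariate its changes with OHT, with IACS-010759 in nonprimed cells, with both agents and in OHT_IACS against IACS were 0.27, 0.25, 0.42 and 0.17, all called.

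Aldh1l2 (chr10:83487450-83534140, minus strand), the mitochondrial dehydrogenase that ends the branch in carbon dioxide, was hardly present. Its reads numbered 10 to 12 per untreated library, 1 to 8 in OHT, 3 to 11 in IACS and 8 to 11 in OHT_IACS, at 0.0127 to 0.127 RPKM. These libraries overlap across conditions, and the gene was left out of the tests. Annotation places 1056 of its exon bases under the opposite-strand gene D10Wsu102e. Shmt1, Mthfd1 and Shmt2 share 184, 37 and 32 exon bases with opposite-strand Smcr8, Gm47525 and Ndufa4l2, and Phgdh, Psat1, Mthfd2 and Mthfd1l share none with another annotated gene. Whether the shared bases were among those counted is not known.

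**Figure D3:**
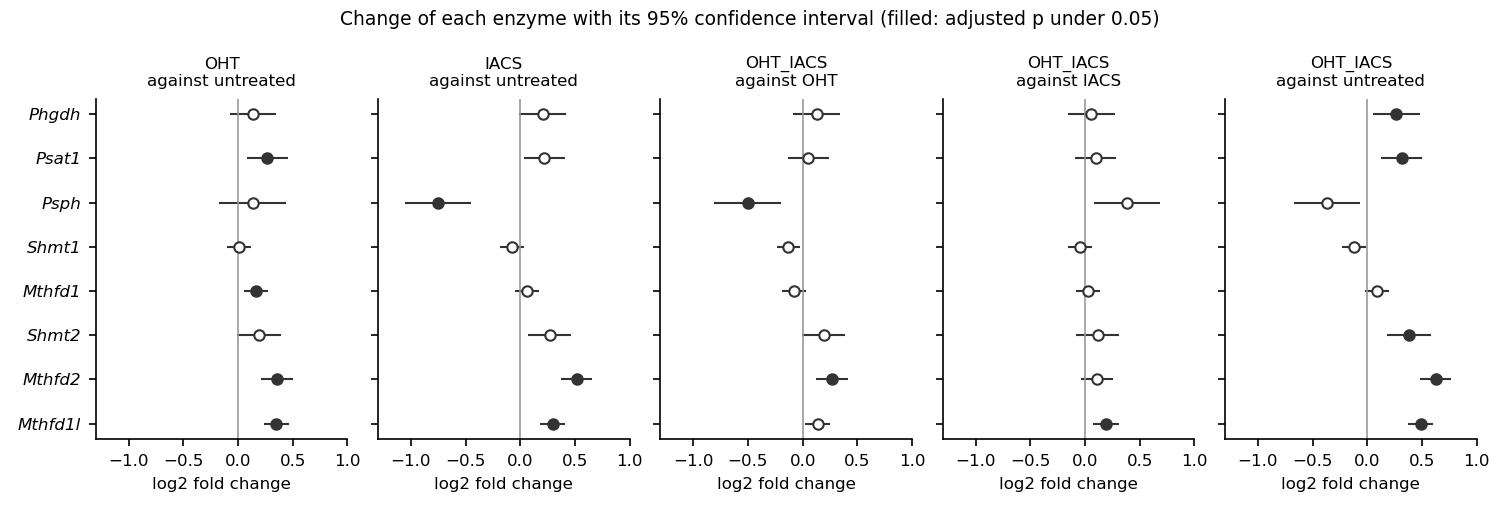
Log2 fold change of the 8 tested enzymes with its 95% confidence interval in 5 comparisons; filled points have an adjusted p under 0.05. Mthfd2 is filled in 4 panels and Mthfd1l in 4, Psph is filled on the left in both IACS-010759 panels, and Shmt1 is open in all 5.

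Read by comparison, OHT against untreated called 4 of the 8 enzymes higher (Psat1, Mthfd1, Mthfd2 and Mthfd1l) beside 18.2% of all genes tested, and 0 lower beside 18.2%. At an unadjusted p under 0.05 none was lower, and limma voom on the recovered reads also called 0 lower. With the library total as a covariate, 2 were higher (Mthfd2 and Mthfd1l) and Phgdh was lower, beside 1195 higher and 1156 lower of 9745 genes. IACS-010759 in nonprimed cells called 2 higher (Mthfd2 and Mthfd1l) beside 8.15%, and 1 lower (Psph) beside 7.74%. In primed cells it called 1 higher (Mthfd2) beside 11.9% and 1 lower (Psph) beside 11.8%. With the covariate IACS-010759 called 4 higher and 2 lower in nonprimed cells, beside 864 and 728 of 9745 genes. In primed cells that fit called 5 higher and 2 lower, beside 1321 and 1457. OHT_IACS against IACS called 1 higher (Mthfd1l) beside 12.3% and 0 lower beside 14.2%, with none lower at an unadjusted p under 0.05 and 0 by voom. Both agents against untreated called 5 higher beside 18.5%: Phgdh, Psat1, Shmt2, Mthfd2 and Mthfd1l. In that comparison 0 were lower beside 20.9%, with 2 at an unadjusted p under 0.05 (Psph and Shmt1) and 2 by voom. The median log2 fold change of the 8 was 0.18, 0.21, 0.09, 0.10 and 0.29 in these 5 comparisons in turn, and that of all tested genes lay between -0.01 and 0.01. These comparisons share control libraries and are not independent of each other.

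Without the 3 libraries of smallest total, an alternative added after seeing the data, OHT was left with 1 library, whose spread was taken from the other conditions. In that fit IACS-010759 called the same 5 genes higher in nonprimed and in primed cells, Phgdh, Psat1, Shmt2, Mthfd2 and Mthfd1l, by 0.13, 0.15, 0.16, 0.48 and 0.27 on the log2 scale in nonprimed and by 0.39, 0.27, 0.34, 0.42 and 0.21 in primed cells. The primed comparison there set 1 OHT library of 13956222 reads against OHT_IACS libraries of at most 11913079, a wider gap in total than in the fit over all libraries. With the total as a covariate and all libraries kept, the same 5 genes were called higher in primed cells, by 0.15, 0.07, 0.21, 0.29 and 0.15, beside 1321 of the 9745 genes. In the fit without the 3 libraries the calls stood beside 825 of the 9688 genes tested there, higher in each background. OHT alone called Mthfd2 (0.21) and Mthfd1l (0.28) higher and no other enzyme, beside 1102 genes.

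Whether the response to IACS-010759 differed between primed and nonprimed cells was tested directly as an interaction. It called 0 of the 8 enzymes beside 0.144% of all genes tested. At an unadjusted p under 0.05 there was 1 enzyme, Mthfd2, whose rise was smaller in primed cells (difference -0.25 on the log2 scale, 95% confidence interval -0.45 to -0.04, p 0.0211, adjusted p 0.309), and voom called 0. That difference passed with quantile normalization and without OHT replicate 2 (-0.32, adjusted p 0.0450), and it was -0.15 with the covariate (adjusted p 0.170) and -0.06 without the 3 smallest libraries (adjusted p 0.687). For Psph the difference was 0.25 (-0.18 to 0.68, adjusted p 0.621).

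Ratios within a library do not depend on how libraries are scaled, and they set each mitochondrial enzyme against its cytosolic counterpart. Mthfd1l to Mthfd1, a pair of similar coverage, was 0.665, 0.642 and 0.669 in untreated libraries, 0.735, 0.742 and 0.773 in OHT, 0.776, 0.774 and 0.780 in IACS and 0.874, 0.850 and 0.887 in OHT_IACS. The 4 conditions did not overlap, with means of 0.659, 0.750, 0.777 and 0.870 in that order. Shmt2 to Shmt1 was 2.13, 2.02 and 2.18 in untreated libraries, 2.49, 2.32 and 2.36 in OHT, 2.54, 2.44 and 3.09 in IACS and 3.02, 2.98 and 2.98 in OHT_IACS. Here OHT and IACS overlapped, IACS replicate 3, a small library, was the highest of all, and the coverage of the pair differed (1.01 against 0.402 reads per base). These ratios show unequal change of the 2 genes of a pair and were not tested.

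**Figure D4:**
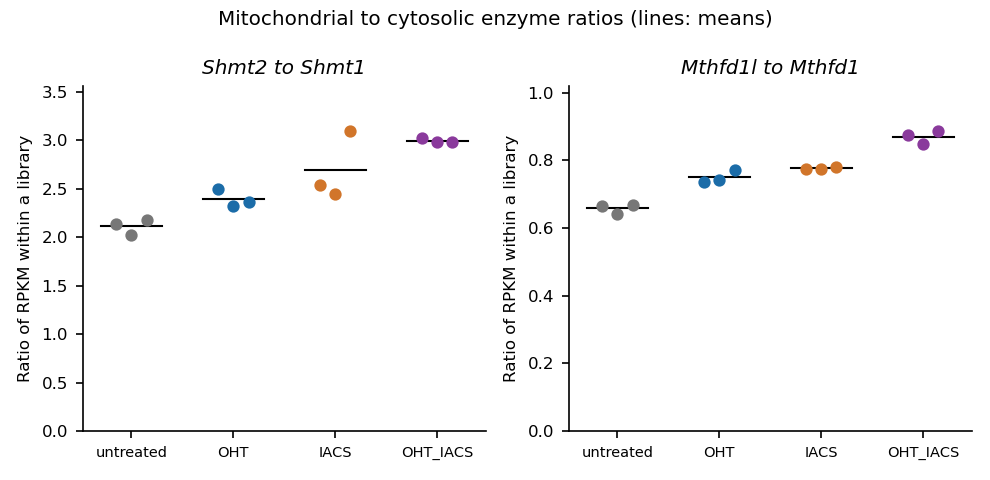
Ratio of RPKM of the mitochondrial to the cytosolic enzyme within each library, by condition (n = 3 each; lines are means), with axes starting at 0. The ratio of Mthfd1l to Mthfd1 climbs from a mean of 0.659 in untreated to 0.870 in OHT_IACS libraries with no overlap between conditions, and that of Shmt2 to Shmt1 from 2.11 to 2.99.

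Across the 12 libraries Phgdh, Psat1, Shmt2, Mthfd2 and Mthfd1l varied together, with Pearson r of log2 values from 0.736 (Phgdh and Mthfd1l) to 0.934 (Phgdh and Psat1). Psph was related inversely to each of these 5, from -0.343 with Mthfd1l to -0.606 with Shmt2. These r are descriptions over libraries that share conditions and library totals. Of all tested genes, the one most like Mthfd2 was Asns, the asparagine synthetase (r 0.994, 12 libraries), followed by Pdlim5 (0.980) and the glutamyl-prolyl-tRNA synthetase Eprs (0.979). Shmt2 was most like the glycyl-tRNA synthetase Gars (0.979), Atf4 (0.967) and Gclm (0.967). Mthfd1l lay nearest Ide, Sik3 and Rgcc (0.979, 0.966 and 0.963), and Mthfd1 nearest the RNA helicase genes Ddx27, Ddx24 and Ddx18 (0.959, 0.955 and 0.937). The nearest genes to Phgdh were Banf1, Tagln2 and Hist1h2bf (0.982, 0.978 and 0.969), and to Psat1 Lcp1, Hspa9 and Eif3h (0.984, 0.981 and 0.980). Psph was nearest Exo5, Ciao1 and Psmd10 (0.964, 0.957 and 0.957). The neighbours of Phgdh and Psat1 were covered at 0.491 to 1.10 reads per base, those of Shmt2 at 0.517 to 0.981, those of Mthfd2 at 0.371 to 0.733 and those of Psph at 0.101 to 0.136. The part of the library total in these r was not tested.

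Because 5 of the enzymes varied together, their promoters were read for the E-box CACGTG, a sequence MYC can bind, and for TGATGNAA, the core of a composite element that ATF4 with a C/EBP partner can bind. RefSeq promoters (GRCm38.p6, 250 bases before to 50 after a start) were matched for 8 of the 9 genes in 9 windows. The RefSeq starts of Mthfd2 and Psat1 lie far inside the gene spans given above, which come from GENCODE. The expression table was made on mm9 and carries no coordinates, so genes were matched by symbol. In the 250 bases before the start, on both strands, CACGTG was present in 6.02% of the 32851 promoters and TGATGNAA in 3.45%, and neither was present in any of the 9 windows. That says only that these letters are not in these windows. The promoters of 3 mitochondrial enzymes that vary together are shown from 250 bases upstream, in lower case throughout since neither motif occurs: Mthfd2 (chr6:83317607-83317854, minus strand), Mthfd1l (chr10:3972825-3973074, plus strand) and Shmt2 (chr10:127522445-127522694, minus strand). Beside them stand 30 bases of Asns (chr6:7693214-7693243, minus strand), the gene nearest Mthfd2, with its TGATGNAA match, first base 23 before the start, in capitals. Of the other stress response genes scanned, Trib3, Ddit3 and Atf5 held neither motif in the 250 bases before the start, and Trib3 held TGATGNAA after it, with its first base at 14.
Mthfd2: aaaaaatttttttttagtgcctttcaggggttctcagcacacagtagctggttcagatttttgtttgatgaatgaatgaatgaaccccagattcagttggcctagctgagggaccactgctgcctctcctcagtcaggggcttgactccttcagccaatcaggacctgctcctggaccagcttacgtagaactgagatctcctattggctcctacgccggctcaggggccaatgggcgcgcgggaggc
Mthfd1l: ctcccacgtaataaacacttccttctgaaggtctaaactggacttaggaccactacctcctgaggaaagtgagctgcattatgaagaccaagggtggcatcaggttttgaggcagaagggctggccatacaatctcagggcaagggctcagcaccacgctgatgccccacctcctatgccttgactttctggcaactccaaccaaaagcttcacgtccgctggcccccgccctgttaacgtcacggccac
Shmt2: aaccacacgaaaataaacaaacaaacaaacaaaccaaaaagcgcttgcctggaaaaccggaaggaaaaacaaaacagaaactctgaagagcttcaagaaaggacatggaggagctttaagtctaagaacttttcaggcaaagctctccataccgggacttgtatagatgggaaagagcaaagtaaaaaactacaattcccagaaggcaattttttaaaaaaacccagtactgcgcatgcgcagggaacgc
Asns: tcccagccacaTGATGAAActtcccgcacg

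Around the 9 enzymes, 8 lists of related genes were read. Their counts stand beside those of all tested genes, of which OHT called 18.2% higher and 18.2% lower, and IACS-010759 8.15% and 7.74% in nonprimed and 11.9% and 11.8% in primed cells. Of 9 serine and glycine transporters 6 were tested, and IACS-010759 called 4 higher in nonprimed cells (median log2 fold change 0.24) and 5 higher in primed cells (0.25), with 0 lower in both by limma. Slc6a9, a glycine transporter, went from a mean of 2.24 RPKM in untreated to 5.74 in IACS (log2 fold change 1.33) and from 3.31 in OHT to 8.55 in OHT_IACS (1.36), with a rise of 0.53 with OHT alone, and Slc1a4, a serine and alanine carrier, changed by 0.68 and 0.97. Slc38a2 rose with both agents, by 0.25 and 0.19 with IACS-010759 and by 0.21 with OHT, while Slc36a1 and Slc1a4 were lower with OHT (-0.40 and -0.35), which called 3 of the 6 higher and 2 lower. Among the 10 of 12 tested genes of the integrated stress response reference, 8 were higher in nonprimed cells (median 0.58) and 7 in primed cells (0.56). Trib3 rose by 1.96 and 1.54, Atf5 by 1.75 and 1.98, and Nupr1 by 1.54 and 1.36. OHT called 5 of the 10 higher and 1 lower (median 0.22), with Trib3 at 0.68 and Atf5 at -0.40. Atf4 RNA itself, at 0.981 reads per base, had 0.24 and 0.13 (adjusted p 0.0743 and 0.289).

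Other folate genes showed no shared direction: of 14 tested, IACS-010759 called 1 higher and 1 lower in nonprimed cells and 2 higher and 3 lower in primed cells, with medians of 0.01 and -0.11. The counts in nonprimed cells are near the share of all genes. Sfxn3 rose in primed cells (0.45), and the mitochondrial serine carrier relative Sfxn2 fell by 0.42 in primed cells. Mthfd2l, the paralogue of Mthfd2, rose with OHT (log2 fold change 0.95, adjusted p 0.00220) from a mean of 0.831 to 1.70 RPKM and was far less abundant than Mthfd2. The glycine cleavage genes Gldc and Amt did not pass the filter, and of the 2 tested Dld rose with OHT and in nonprimed cells with IACS-010759 (0.28 and 0.20). Among 7 tested methionine cycle genes OHT called 4 higher, with Mtrr and Ahcyl1 at 0.30 and 0.29, and 1 lower, Mat2b at -0.21. IACS-010759 called 2 higher there in nonprimed cells, Mtrr and Ahcyl1 (0.22 and 0.27), and Mat2b lower in both backgrounds (-0.22 and -0.18). Of 9 tested genes that use serine or glycine, OHT called 3 higher, among them the phosphatidylserine synthases Ptdss2 and Ptdss1 (0.43 and 0.30), and IACS-010759 called 0 in nonprimed and 1 lower in primed cells, Ptdss1 (-0.15). The 5 genes around 3-phosphoglycerate had 1 call with IACS-010759 in each background, Bpgm at -0.37 and -0.60. In the MYC reference of 8 genes OHT called 5 higher and 1 lower (median 0.26), with St6galnac4 at 1.38 and the Myc gene itself at -0.81. IACS-010759 called 2 of these higher in nonprimed cells (median 0.10), Myc at 0.34 and St6galnac4 at 0.21. In primed cells it called 1 higher (median 0.01), Myc at 0.53, with 0 lower in both backgrounds by limma.

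**Figure D5:**
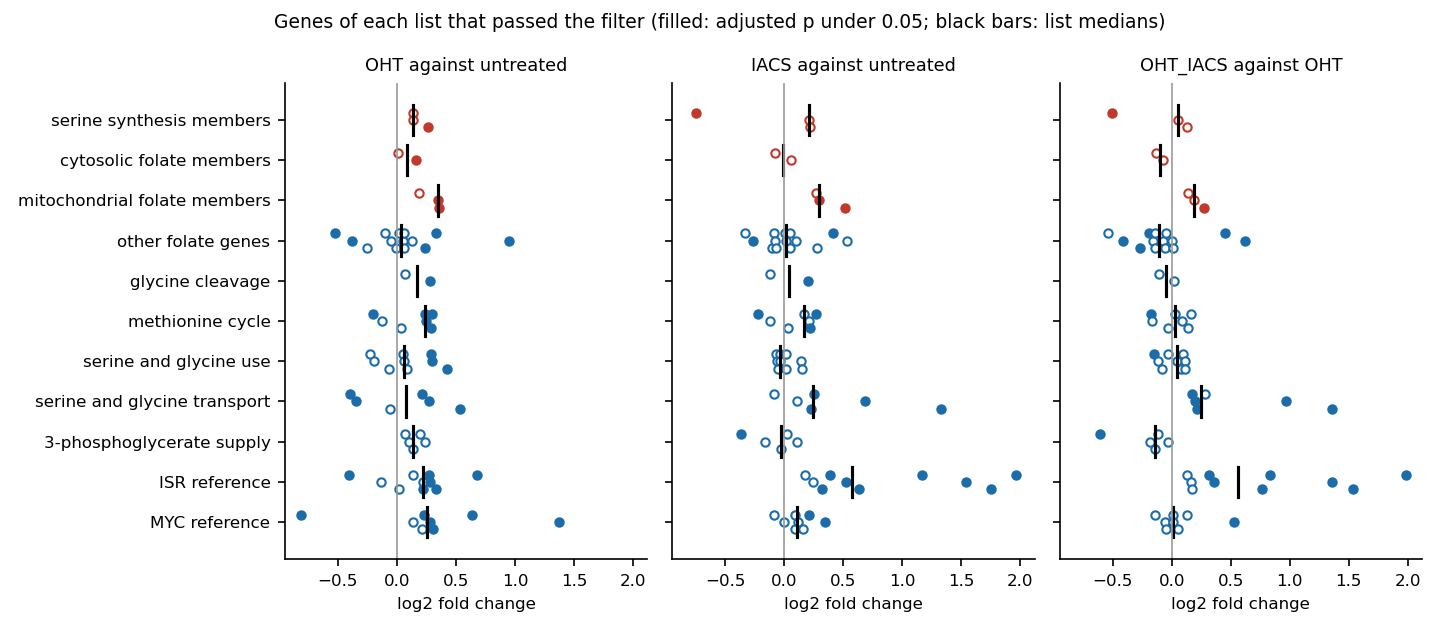
Log2 fold change of each tested gene by list in 3 comparisons; red points are the enzymes, blue points are related genes, filled points have an adjusted p under 0.05 and black bars are list medians. With IACS-010759 the transport and integrated stress response lists reach furthest to the right, and the mitochondrial enzymes stay within 0.52.

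The label of the cells was set against markers. FL5.12 cells are grown with IL-3, and its 3 receptor genes were present at a summed 69.1 to 82.3 RPKM, led by Csf2rb at 41.7 in untreated cells. Of 11 B-lineage markers, 8 had at most 3 reads in every library, Pax5 and Ebf1 among them, and the most abundant, Cd79b, was at 2.98 RPKM in untreated cells and 1.35 in OHT cells. The summed B-lineage level was 2.11 to 4.93 RPKM, so these libraries hold few reads of the genes that define B-lymphoid cells. Myeloid markers summed to 9.89 to 17.2 RPKM, led by Mpo, and erythroid markers to 6.20 to 16.0, led by Klf1. T cell markers summed to 1.21 to 2.60 RPKM, with Cd3g the most abundant and 3 of 5 at most 3 reads, and the 4 fibroblast markers summed to at most 0.335. Klf1 fell with each agent (log2 fold change -0.50 with OHT and -0.95 with IACS-010759 in nonprimed cells), and with OHT the myeloid markers Lyz2 and Mpo fell by 1.94 and 0.35, the T cell marker Cd3g by 0.88 and Cd79b by 1.10, while Cd79a, the other B-lineage marker tested, had 0.11 and was not called. With IACS-010759 in primed cells Klf1 had -0.89 and Cd3g had 0.56, both called. Lyz2, Mpo, Cd79a and Cd79b were not called there. Their part in the changes of the enzymes was not tested, and fewer cells of a kind cannot be told apart from less RNA per cell in bulk RNA.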

How the data were processed

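Total RNA of 12 cultures was sequenced, 3 in each of 4 conditions. The authors deposited RPKM per gene and library, beside their own log2 fold changes and adjusted p-values from DESeq2, which were not used. The submitters' processing notes name TopHat2 2.0.8, SAMtools, featureCounts 1.4.5-p1 and mm9. Reads, gene lengths and library totals were recovered from the steps of the RPKM values. Whether duplicate reads were removed is not stated.

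Each library's RPKM were divided by the median, over genes, of their ratio to the gene's geometric mean, and log2(RPKM + 0.1) was fitted with limma 3.58.1 in R 4.3.3, with all 12 libraries in one model, a mean-variance trend and Benjamini-Hochberg adjustment over the 9745 genes that reached an RPKM of 1 in at least 3 libraries. A gene was called at an adjusted p under 0.05. Fold changes are on the log2(RPKM + 0.1) scale and understate those of low genes. Whether those of the most abundant enzymes, whose reads grew less than the library, are also too small was not tested. Intervals are limma's 95% confidence intervals. There were 6 comparisons, the interaction included. Other steps used Python 3.11.15. Positions come from GENCODE vM21 (GRCm38) by symbol.

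All 9 enzymes were named. From each related list up to 3 called genes with the largest mean change with IACS-010759 and up to 2 with OHT were named, any gene of the stress response and MYC references, the 3 genes with the highest Pearson r to each enzyme, and markers. A few genes that met these rules were left out of the text. The enzymes and lists were chosen with earlier results of these data known. Alternatives were other pseudocounts, filters, scalings and models, the replicate number as a block, and leaving out each library.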

Additional observations from a re-analysis of the deposited data

Results flagged for a closer look

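Among all genes of the lists, the test of whether IACS-010759 acted differently in primed and nonprimed cells singled out Il3ra, the alpha chain of the IL-3 receptor, with a difference of 0.68 on the log2 scale (limma adjusted p 0.0445). Its log2 fold change with IACS-010759 was -0.01 in nonprimed and 0.67 in primed cells. With OHT alone it was -0.38 (limma adjusted p 0.00272), and with both agents against untreated it was 0.29 (limma adjusted p 0.0131). None of the 8 tested enzymes passed this test.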

How the results depend on the processing

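The rises of Mthfd2 and Mthfd1l with OHT, with IACS-010759 in nonprimed cells and with both agents passed the threshold under all 12 other settings and in all 12 fits without a library, and so did those of Psat1 and Shmt2 with both agents. The fall of Psph in nonprimed cells passed under all 11 other settings that kept the gene and in those 12 fits. Of 1138 alternative values of single enzymes, 1014 kept their direction and side of the threshold. Counts of called enzymes are small, so 1 gene moves them, and the cause of each shift was not tested. Psph had 30 to 102 reads per library and Aldh1l2 1 to 12, and Phgdh, Psat1 and Shmt2 were covered at 0.827 to 1.01 reads per base.

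Counts of enzymes that are not given below changed by at most 1.5 times. With log2 library total as a covariate the enzymes called were 2 higher and 1 lower with OHT, 4 higher and 2 lower with IACS-010759 in nonprimed cells, 5 higher and 2 lower in primed cells, 2 higher in OHT_IACS against IACS and 4 higher and 1 lower with both agents; over all 9745 genes these were 1195 and 1156, 864 and 728, 1321 and 1457, 1370, and 1619 and 1706. Quantile normalization called 5 higher with IACS-010759 in each background, 2 higher in OHT_IACS against IACS, 2 lower with both agents and 1 lower (Mthfd2) in the interaction, beside 1095, 1220, 1489, 2145 and 5 of all genes. Only the 9 largest libraries, chosen after seeing the data, called 2 higher with OHT, 5 higher with IACS-010759 in each background, 5 higher in OHT_IACS against IACS and 2 lower with both agents, beside 1102, 825, 825, 1655 and 2420 of 9688 genes. Voom called 4 and 2 higher with IACS-010759 in nonprimed and primed cells and 2 lower with both agents, beside 967, 1288 and 2185 genes. The compared groups alone called 2 higher with OHT, 0 higher with IACS-010759 in primed cells and 2 lower with both agents, beside 1507 of 9540, 907 of 9521 and 2310 of 9584 genes. RPKM as deposited called 4 higher in nonprimed cells, beside 867 of 9745 genes. An RPKM of at least 5 removed Psph and left 0 lower in nonprimed and in primed cells, beside 654 and 1086 of 7079 genes. A pseudocount of 1 called 1 lower with both agents, beside 2064 of 9745 genes.

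Without single libraries, the higher calls ranged from 2 (without any untreated library or OHT replicate 3) to 6 (without OHT replicate 2) with OHT, from 2 to 5 (without OHT replicate 2) with IACS-010759 in nonprimed cells, from 1 to 2 (without OHT replicate 3) in primed cells and from 0 (without OHT_IACS replicate 1) to 1 in OHT_IACS against IACS. Lower calls ranged from 0 (without OHT_IACS replicate 1 or 3) to 2 (without OHT replicate 2) in primed cells, from 0 to 1 with both agents (without OHT replicate 2, IACS replicate 2 or 3, or OHT_IACS replicate 2) and from 0 to 1 in the interaction (without OHT replicate 2). Over all genes, lower calls in primed cells were 819 and 713 without OHT_IACS replicate 1 and 3, and 1494 without OHT replicate 2. With both agents they were 2146, 1993, 2125 and 1802 without OHT replicate 2, IACS replicate 2, IACS replicate 3 and OHT_IACS replicate 2. The interaction called 38 lower without OHT replicate 2.

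The replicate number does not pair the samples, since the correlation of same-numbered deviations was over 0.1 in 1 of 18 pairs (-0.17 to 0.10). With it as a block, 2 enzymes were higher in OHT_IACS against IACS and 1 was lower with both agents, beside 1182 and 2028 of 9745 genes. No other count of enzymes changed by over 1.5 times with the block.

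Some values that were not called changed sign, and 1 of them was then called, Phgdh with OHT under the covariate. For Phgdh with OHT they were -0.0297 (quantile), -0.12 (covariate) and -0.12 (9 largest libraries), and in OHT_IACS against IACS -0.0258 (covariate). For Shmt1 with OHT they were -0.0599 (quantile), -0.0027 (voom), -0.0689 (covariate) and -0.10 (9 largest), and for Shmt2 with OHT -0.0219 (covariate). In the interaction they were 0.0386, 0.10 and 0.26 for Phgdh and 0.0092, 0.0682 and 0.18 for Shmt2 (quantile, covariate, 9 largest), and 0.12, -0.0059 and 0.0530 for Psat1, Psph and Shmt1 (9 largest). Without single libraries the ranges across 0 were -0.0014 to 0.21 for Phgdh and -0.0565 to 0.12 for Psat1 with IACS-010759 in primed cells, -0.21 to 0.0026 for Phgdh and -0.15 to 0.0303 for Shmt2 in the interaction, -0.0167 to 0.0633 for Shmt1 with OHT and -0.0111 to 0.0519 for Mthfd1 in OHT_IACS against IACS.

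Over all genes, OHT called 3546 and, with the covariate, 2351. IACS-010759 in nonprimed cells called 794 higher and 754 lower, against 867 and 469 with RPKM as deposited, and 951 in all without untreated replicate 1. In primed cells it called 2310, and 1524 without OHT_IACS replicate 3. The interaction called 14, and from 3 to 130 over the alternatives. Of 1642 alternative values of called related genes, 71 lost the threshold and none changed direction.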
